A study of Drosophila melanogaster with 12 samples.

Results

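The proteasome subunit genes are the genes that encode the barrel-shaped 20S core of the proteasome and the 19S regulatory particle that caps it. They were chosen by symbol, as every gene named Rpt or Rpn with a number and Prosalpha1 to Prosalpha7 and Prosbeta1 to Prosbeta7, without testis-specific and R paralogs, and the symbols were matched through FlyBase identifiers. The rule found 32 of the 17023 genes in the files, of which 14 belong to the 20S core and 18 to the 19S particle. A filter on low counts kept 9024 genes for testing, and 31 of the 32 proteasome subunit genes were among them. The exception was Prosalpha1, with between 2 and 8 counts in each library.

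The proteasome degrades proteins that carry ubiquitin chains. In the 20S core, alpha subunits form the outer rings, which gate the entry of substrates, and beta subunits form the inner rings, where Prosbeta1, Prosbeta2 and Prosbeta5 carry the caspase-like, trypsin-like and chymotrypsin-like activities. The 19S particle has a base, in which the Rpt ATPases unfold substrates and Rpn1, Rpn2, Rpn10 and Rpn13 hold scaffolds and ubiquitin receptors, and a lid, in which Rpn11 cuts the ubiquitin chain off. The assembled complex holds its subunits in fixed proportions, and many of these roles are known from yeast and mammals.

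The cells were S2, an established Drosophila melanogaster line derived from embryos, with properties of hemocytes, the phagocytic blood cells of insects. Cells received double-stranded RNA (dsRNA) against porthos (CG9253, symbol pths), which encodes a DEAD-box RNA helicase, or against GFP as the control, at 1 µg, and every cell lysate contained 100 µg/ml cycloheximide, an inhibitor that holds ribosomes on mRNA. Cells were passaged 48 hours after transfection and harvested 3 days after the passage, and the cycloheximide time was 3 minutes. Polysome libraries hold mRNA that sedimented with several ribosomes in a sucrose gradient. Input libraries hold mRNA of unfractionated lysate, of which 20% was taken as input. The 4 groups, with 3 libraries each, were polysome RNA of porthos dsRNA cells, polysome RNA of GFP dsRNA cells, input RNA of porthos dsRNA cells and input RNA of GFP dsRNA cells. Whether replicates were separate cultures is not stated in the labels. The p-values therefore reflect the spread among the sequenced libraries, part or all of which may be technical.

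Polysome libraries held 7559406 to 9453365 counts and input libraries 9648377 to 11918941, and the proteasome subunit genes took between 0.435% and 0.512% of the counts of a library. A floor of 3 counts corresponded to 0.252 to 0.397 CPM (counts divided by the TMM-scaled size of their library and brought to one total), which covers counting error only. The mRNA of porthos itself was lower in porthos dsRNA cells, with 113.5, 141 and 93.7 CPM on polysomes, against 326, 321 and 314 CPM in GFP dsRNA cells (log2 change -1.46 ± 0.10, SE; edgeR adjusted p = 8e-10). In input it had 106, 108 and 95.8 CPM in porthos dsRNA cells, against 220.2, 226 and 222 CPM in GFP dsRNA cells (log2 change -1.11 ± 0.10; edgeR adjusted p = 1.4e-07). The hemocyte markers Hml, Pxn and srp were detected in all 12 libraries, each at 137 counts or more. Other hemocyte markers, NimC1, Sr-CI and He, had far lower counts, given with the marker lists below. Library 3 of the porthos polysome group stood apart, with 10377 genes detected, against 11485 to 11864 in the other 11 libraries. Counts and medians of the porthos results on polysomes are given with and without that library. Leaving it out for the gene lists beside the members was a choice made after the data were seen.

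The levels of the subunit mRNAs were first set side by side per length, as TPM, which divides counts by exon length and scales each library to the same total. In input, the median subunit gene of the 20S core had 213.6 TPM in porthos dsRNA cells and 248.9 TPM in GFP dsRNA cells. The median gene of the 19S particle had 209.4 TPM in porthos dsRNA cells and 223.1 TPM in GFP dsRNA cells. Group means in input of GFP dsRNA cells were spread 2.86-fold between the lowest and highest tested core gene, and 4.83-fold within the 19S particle.

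In the 20S core, the highest levels in input of GFP dsRNA cells belonged to Prosalpha6 and to Prosbeta5, the chymotrypsin-like subunit. Prosbeta5 (FBgn0029134, chromosome 2R, 10819978 to 10821178 in dm6, plus strand) had 519, 516 and 461 TPM on polysomes of porthos dsRNA cells, against 485, 519.6 and 530.1 TPM in GFP dsRNA cells. Its input libraries held 385, 395 and 368 TPM in porthos dsRNA cells, against 403, 428 and 381 TPM in GFP dsRNA cells. For this gene the dsRNA groups overlapped in both fractions, and the polysome libraries all lay above the input libraries. Prosalpha6 (FBgn0250843, chromosome 2L, 10221351 to 10222546, plus strand) had 453, 484 and 442 TPM on polysomes of porthos dsRNA cells, against 518, 536 and 538 TPM in GFP dsRNA cells. In input it had 331, 338 and 318 TPM in porthos dsRNA cells, against 409.9, 416 and 390.1 TPM in GFP dsRNA cells. The porthos libraries of Prosalpha6 lay below all GFP libraries in both fractions.

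The lowest levels among the tested core genes belonged to Prosalpha5 and to Prosbeta1, the caspase-like subunit. Prosalpha5 (FBgn0016697, chromosome 2R, 17412767 to 17413769, plus strand) had 193, 199 and 156 TPM on polysomes of porthos dsRNA cells, against 167, 166 and 175 TPM in GFP dsRNA cells. Its input libraries held 128, 128 and 126 TPM in porthos dsRNA cells, against 141, 143 and 141 TPM in GFP dsRNA cells. The dsRNA groups of Prosalpha5 overlapped on polysomes, while in input the porthos libraries lay below the GFP libraries without passing the test. Prosbeta1 (FBgn0010590, chromosome 2R, 16013805 to 16014787, minus strand) had 256, 254 and 276 TPM on polysomes of porthos dsRNA cells, against 297, 268 and 266 TPM in GFP dsRNA cells. The input values were 193, 181 and 192 TPM in porthos dsRNA cells, against 209, 192 and 175 TPM in GFP dsRNA cells. The dsRNA groups of Prosbeta1 overlapped in both fractions.

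Prosalpha1 (FBgn0263121, chromosome 2R, 7827303 to 7828678, minus strand) encodes the remaining alpha subunit, and its highest value in any library was 1.87 TPM. Its paralog Prosalpha1R, which has a coding region of the same 732 bases, had at most 1 count in a library. How multiply mapped reads were counted is not given in the sources used here, so the level of Prosalpha1 is uncertain and it enters no count below. Of the 16 testis-specific and R paralogs, 13 had at most 5 counts in any library. The other paralogs were Rpt6R, Rpt3R and Prosbeta2R2, at 64.8 ± 3.06, 39.5 ± 3.01 and 3.21 ± 0.40 CPM in input of GFP dsRNA cells (SD, n = 3). Counts of Rpt6 and Rpt3 could hold reads of these paralogs, or lack reads given to them.

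In the 19S particle, the highest levels belonged to Rpt1, an ATPase of the base, and Rpn2, the large scaffold of the base. Rpt1 (FBgn0028687, chromosome 2R, 7652440 to 7653954, minus strand) had 381, 274 and 369.8 TPM on polysomes of porthos dsRNA cells, against 217, 258 and 295 TPM in GFP dsRNA cells. In input Rpt1 had 462, 440.5 and 435 TPM in porthos dsRNA cells, against 444, 458 and 472 TPM in GFP dsRNA cells. All 6 polysome libraries lay below the input libraries for Rpt1, the reverse of the order seen for Prosbeta5. Rpn2 (FBgn0028692, chromosome 3R, 29153524 to 29157255, plus strand) had 149, 121 and 154 TPM on polysomes of porthos dsRNA cells, against 115, 138 and 139.7 TPM in GFP dsRNA cells. Its input libraries held 272, 278 and 263 TPM in porthos dsRNA cells, against 298, 311 and 274 TPM in GFP dsRNA cells. Rpn2 was again lower in every polysome library than in every input library.

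The lowest 19S levels belonged to Rpn13, a ubiquitin receptor, and Rpt3, an ATPase. Rpn13 (FBgn0033886, chromosome 2R, 13958545 to 13960404, minus strand) had 93.0, 83.2 and 100.0 TPM on polysomes of porthos dsRNA cells, against 82.6, 106 and 85.7 TPM in GFP dsRNA cells. In input it had 89.5, 87.2 and 80.0 TPM in porthos dsRNA cells, against 102, 104 and 79.2 TPM in GFP dsRNA cells. The 4 groups of Rpn13 overlapped on this scale. Rpt3 (FBgn0028686, chromosome X, 11125101 to 11126785, plus strand) had 91.1, 86.1 and 105 TPM on polysomes of porthos dsRNA cells, against 74.5, 98.5 and 86.4 TPM in GFP dsRNA cells. Its input libraries held 129, 142 and 146 TPM in porthos dsRNA cells, against 155, 167 and 152 TPM in GFP dsRNA cells. Rpt3 in input was lower in each porthos library than in each GFP library, without passing the test (log2 change -0.17 ± 0.08; edgeR adjusted p = 0.39).

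The comparison of polysome with input RNA set the core most clearly beside the 19S particle. In porthos dsRNA cells all 13 tested core genes were higher on polysomes than in input, with log2 changes from 0.39 to 0.70 and a median of 0.53. Of the 18 genes of the 19S particle 4 were higher and 9 lower, with a median log2 change of -0.10. Of all 9024 genes tested, 23.7% were called higher and 24.1% lower in this comparison, and their median log2 change was 0.0055. Genes were called in the edgeR quasi-likelihood test at a Benjamini-Hochberg adjusted p under 0.05.

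In GFP dsRNA cells all 13 core genes were again higher on polysomes, with log2 changes from 0.37 to 0.83 and a median of 0.53. Of the 19S genes 2 were higher and 12 lower, with a median log2 change of -0.39 and a lowest value of -1.13. Here 26.5% of all genes tested were called higher and 28.9% lower, with a median log2 change of 0.01.

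Both rings of the core were higher on polysomes. The 6 tested alpha genes had log2 changes from 0.48 to 0.62 in porthos dsRNA cells and from 0.39 to 0.73 in GFP dsRNA cells, and the 7 beta genes from 0.39 to 0.70 in porthos dsRNA cells and from 0.37 to 0.83 in GFP dsRNA cells. Prosalpha2 (FBgn0086134, chromosome 3R, 12431321 to 12432556, plus strand), an alpha ring gene, had 203, 245 and 208 CPM on polysomes, against 142, 159 and 155 CPM in input, in porthos dsRNA cells. In GFP dsRNA cells it had 279, 235 and 221 CPM on polysomes, against 145, 156 and 143 CPM in input. Polysome and input libraries of Prosalpha2 did not overlap in either treatment, and its log2 change was 0.53 ± 0.09 in porthos dsRNA cells and 0.73 ± 0.09 in GFP dsRNA cells (edgeR adjusted p = 2.9e-05 and 2e-07). Prosbeta3 (FBgn0026380, chromosome 3R, 9005313 to 9006226, minus strand), a beta subunit without a catalytic site, had 119, 153 and 117 CPM on polysomes, against 82.2, 83.6 and 72.9 CPM in input, in porthos dsRNA cells. In GFP dsRNA cells it had 176, 152 and 137 CPM on polysomes, against 87.7, 92.4 and 82.2 CPM in input. Here too the fractions lay apart, and the log2 change was 0.70 ± 0.10 in porthos dsRNA cells and 0.83 ± 0.10 in GFP dsRNA cells (edgeR adjusted p = 2.7e-06 and 1.3e-07).

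**Figure D1:**
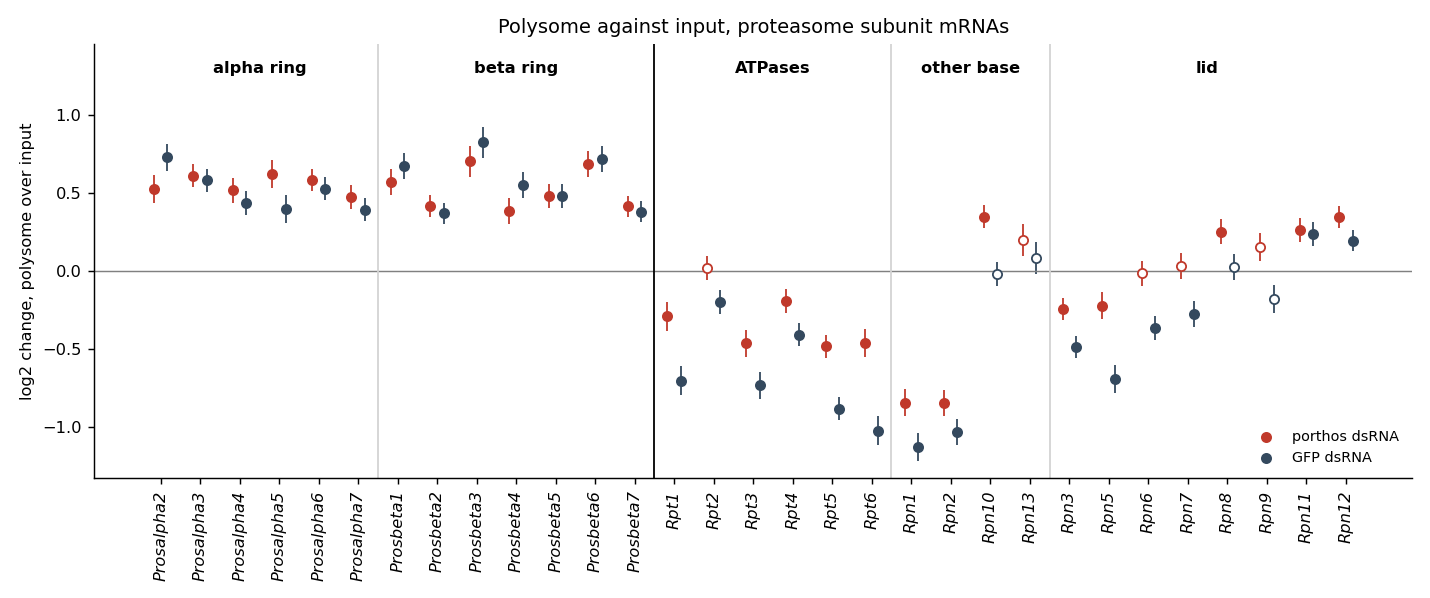
log2 change of polysome over input (vertical axis) for each tested proteasome subunit mRNA, grouped by its place in the complex, in porthos dsRNA cells (red) and GFP dsRNA cells (dark blue). Points are fitted values from 3 libraries a group, bars are 1 SE, and filled points passed an edgeR adjusted p of 0.05; all 13 core genes lie above 0 in both treatments, between 0.37 and 0.83, while the 19S genes reach down to -1.13.

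Within the 19S particle the polysome to input changes are given by role, and a difference between roles was not tested. Of the 6 ATPase genes, 5 were lower on polysomes in porthos dsRNA cells and 6 in GFP dsRNA cells, with medians of -0.37 and -0.72. Rpt2 was the ATPase gene nearest to 0, at 0.02 ± 0.08 in porthos dsRNA cells and -0.20 ± 0.08 in GFP dsRNA cells. In this fit, which takes no account of mRNA length, the base scaffolds stood lowest. Rpt6 lay close to Rpn2 in GFP dsRNA cells, at -1.02 ± 0.09. Rpn1 (FBgn0028695, chromosome 3L, 19915051 to 19918160, plus strand), which also binds ubiquitin and its shuttle proteins, had 192, 143 and 171 CPM on polysomes, against 296, 305 and 307 CPM in input, in porthos dsRNA cells. In GFP dsRNA cells Rpn1 had 143, 156 and 142 CPM on polysomes, against 326, 342 and 297 CPM in input. No polysome library of Rpn1 reached the lowest input library, and its log2 change was -0.84 ± 0.09 in porthos dsRNA cells and -1.13 ± 0.09 in GFP dsRNA cells (edgeR adjusted p = 4.2e-08 and 2.7e-10). Rpn2 had 252, 209.6 and 254 CPM on polysomes, against 425, 445 and 416 CPM in input, in porthos dsRNA cells. In GFP dsRNA cells Rpn2 had 209.7, 236 and 228 CPM on polysomes, against 465, 486 and 423 CPM in input. The log2 change of Rpn2 was -0.84 ± 0.08 in porthos dsRNA cells and -1.03 ± 0.08 in GFP dsRNA cells (edgeR adjusted p = 1.6e-08 and 3.8e-10).

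The ubiquitin receptor genes Rpn10 and Rpn13 were not called lower in either treatment in the same fit, which takes no account of mRNA length. Rpn10 was higher on polysomes in porthos dsRNA cells, at 0.35 ± 0.08, and stood at -0.02 ± 0.08 in GFP dsRNA cells, where it did not pass (edgeR adjusted p = 0.0005 and 0.86). Rpn13 passed in neither treatment, at 0.20 ± 0.10 in porthos dsRNA cells and 0.09 ± 0.10 in GFP dsRNA cells. Of the 8 lid genes 3 were higher and 2 lower in porthos dsRNA cells, against 2 higher and 4 lower in GFP dsRNA cells. Rpn11, which encodes the deubiquitinase, was higher in both, at 0.26 ± 0.08 in porthos dsRNA cells and 0.24 ± 0.08 in GFP dsRNA cells, and so was Rpn12, at 0.35 ± 0.07 and 0.20 ± 0.07. Rpn8 was higher in porthos dsRNA cells, at 0.25 ± 0.08, and did not pass in GFP dsRNA cells, at 0.03 ± 0.08. Rpn3 and Rpn5 were lower in both treatments, at -0.24 and -0.22 in porthos dsRNA cells and -0.48 and -0.69 in GFP dsRNA cells, and Rpn6 and Rpn7 were called lower in GFP dsRNA cells, at -0.36 and -0.27. Rpn9 passed in neither treatment.

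In porthos dsRNA cells the count of lower members was 5 without input library 1 and 5 without input library 2 of that treatment, and 6 without its polysome library 2. Without its polysome library 3, which stood apart, all 13 core genes were higher, and 4 of the 19S genes were higher and 9 lower. Of all genes, 22.3% were lower without polysome library 2 of porthos dsRNA cells. Without library 3 of that group 23.5% were higher and 24.5% lower. Over all left-out libraries, 1782 to 2248 genes were called lower in porthos dsRNA cells, against 2175 with every library kept. The calls of Rpn11 and Rpn12 in GFP dsRNA cells were lost without input library 3 of that treatment, when 0 of the 19S genes were called higher. Over all left-out libraries, 2141 to 2597 genes were called higher in GFP dsRNA cells, against 2395 with every library kept.

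Core and 19S mRNAs also differ in length, which the selection by symbol did not use. The longest coding region had a median of 747 bases over the tested core genes (603 to 846) and of 1256 bases over the 19S genes (792 to 3087). Across the 31 tested members, log2 polysome to input change and log coding length had a Pearson correlation of -0.90 in porthos dsRNA cells and -0.89 in GFP dsRNA cells, and Spearman's rho was -0.88 and -0.91. These are correlations across genes measured in the same libraries, and genes are not independent replicates. Across all 8419 genes with a known coding length, Pearson's r was -0.68 in porthos dsRNA cells and -0.69 in GFP dsRNA cells. Within the 19S particle the r over 18 genes was -0.80 in porthos dsRNA cells and -0.72 in GFP dsRNA cells. In the core, over 13 genes of closely similar length, it was -0.23 in porthos dsRNA cells and -0.63 in GFP dsRNA cells.

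**Figure D2:**
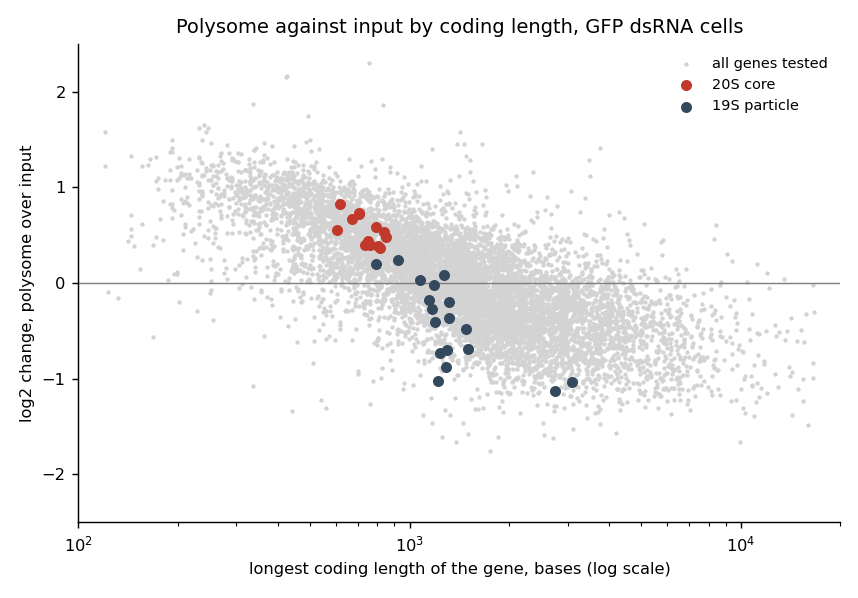
log2 change of polysome over input in GFP dsRNA cells (vertical axis) against the longest coding length of the gene in bases (horizontal log axis), for the 20S core (red), the 19S particle (dark blue) and all genes tested with a coding length (grey, 8406 genes plotted and 13 outside the axes). The 13 core genes are short and lie above 0, between 603 and 846 bases, and the longest members, Rpn1 and Rpn2, lie lowest among the members.

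A further fit was made with the trend of log2 CPM on summed exon length removed from every library. It tested 8818 genes, of which 1499 were called higher and 1121 lower on polysomes in porthos dsRNA cells (median log2 change 0.034), and 2066 higher and 1564 lower in GFP dsRNA cells (median 0.056). Relative to mRNAs of like length, 6 of 13 core genes were higher on polysomes in porthos dsRNA cells (median log2 change 0.15), and 9 of 18 19S genes were lower and 0 higher (median -0.23). In GFP dsRNA cells 3 core genes were higher (median 0.09), and 15 of the 19S genes were lower and 0 higher (median -0.51). Prosalpha2, Prosbeta3 and Prosbeta6 were the core genes called in GFP dsRNA cells in that fit, and Rpn12, called higher without it, was called lower. Rpn10 and Rpn9, which had not passed in GFP dsRNA cells, were called lower there too (log2 change -0.24 and -0.27; edgeR adjusted p = 0.013 and 0.017). RNA of polysome fractions was extracted with phenol and chloroform and RNA of input with TRIzol, so that fraction and extraction cannot be told apart. Scaling by library size alone left all 13 core genes higher in both treatments and moved the median log2 change of all genes by 0.087 in porthos dsRNA cells and by 0.13 in GFP dsRNA cells. The 19S genes numbered 6 higher and 5 lower in porthos dsRNA cells with it (median log2 change -0.015), and 2 higher and 10 lower in GFP dsRNA cells (median -0.26). With it, 60.9% of all calls were higher in porthos dsRNA cells and 60.2% in GFP dsRNA cells, against 49.5% and 47.9% with TMM.

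The ratio of core to 19S mRNA within a library summarises this difference. It was taken as the mean log2(TPM + 1) of the 13 tested core genes minus that of the 18 genes of the 19S particle. On polysomes it was 0.81, 1.12 and 0.73 in porthos dsRNA cells, against 1.36, 1.09 and 1.09 in GFP dsRNA cells. In input it was 0.23, 0.21 and 0.20 in porthos dsRNA cells, against 0.22, 0.20 and 0.24 in GFP dsRNA cells. Every polysome library lay above every input library, and within each fraction the dsRNA groups overlapped. The group means were 0.88 ± 0.20 on polysomes of porthos dsRNA cells, 1.18 ± 0.16 on polysomes of GFP dsRNA cells, 0.21 ± 0.014 in input of porthos dsRNA cells and 0.22 ± 0.020 in input of GFP dsRNA cells (SD, n = 3). Taken instead from the summed TPM of the genes of each complex, the log2 ratio was 0.38 on polysomes of porthos dsRNA cells, 0.70 on polysomes of GFP dsRNA cells, -0.26 in input of porthos dsRNA cells and -0.25 in input of GFP dsRNA cells, so its sign in input depends on the measure. Polysome library 2 of porthos dsRNA cells, at 1.12, was the one that lay among the GFP libraries.

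**Figure D3:**
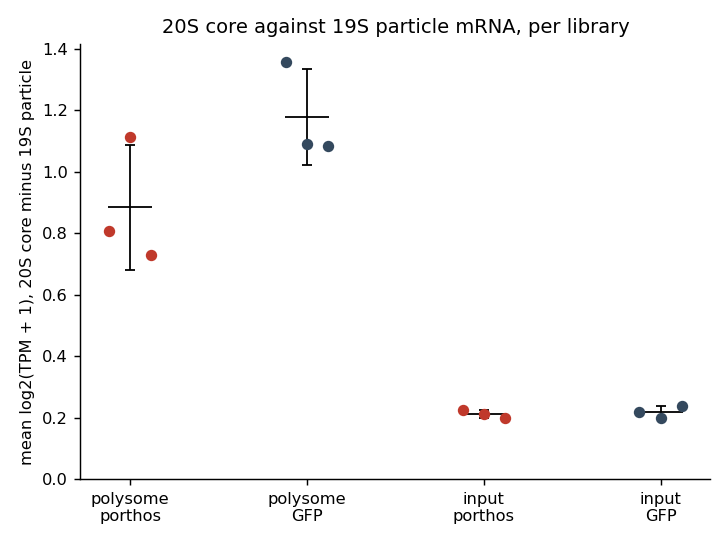
Difference between the mean log2(TPM + 1) of the 20S core genes and that of the 19S genes (vertical axis) in each of the 12 libraries, by group. Points are libraries, the horizontal line is the group mean and bars are SD over 3 libraries; polysome libraries lie between 0.73 and 1.36 and input libraries between 0.20 and 0.24.

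The second question was whether the subunit mRNAs changed with depletion of porthos. On polysomes 7 proteasome subunit genes were higher in porthos dsRNA cells than in GFP dsRNA cells, and all 7 belong to the 19S particle. They were the ATPase genes Rpt6, Rpt1 and Rpt5, the ubiquitin receptor gene Rpn10 and the lid genes Rpn5, Rpn6 and Rpn9. Prosalpha6, of the core, was the 1 gene that was lower. Of all genes tested, 11.2% were called higher and 7.14% lower. The median log2 change was -0.11 over the core, 0.18 over the 19S particle and -0.0042 over all genes. A change above 0 was found for 16 of the 18 19S genes and a change below 0 for 11 of the 13 core genes. Of all 9024 genes tested, 4462 lay above 0 and 4562 below. Among all calls, 61.2% were higher with TMM scaling and 45.1% with library size alone, under which 6 members were higher and 3 lower. Without library 3 the median was -0.10 over the core, 0.13 over the 19S particle and -0.03 over all genes. With the length trend removed, 6 members, all of the 19S particle, were higher and 0 lower, with medians of -0.014 over the core and 0.15 over the 19S particle, where 8.94% of all genes were higher and 8.72% lower. Across the 31 tested members, the log2 change on polysomes and log coding length had a Pearson correlation of 0.61 and a Spearman's rho of 0.76. Across all 8419 genes the values were 0.205 and 0.26, and these genes again share libraries. Within the 19S particle they were 0.064 and 0.31 over 18 genes, and within the core 0.42 and 0.37 over 13 genes.

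Rpt6 (FBgn0020369, chromosome X, 21316052 to 21317663, plus strand) had the largest change on polysomes. It had 114, 94.3 and 131 CPM in porthos dsRNA cells, against 71.7, 83.8 and 78.6 CPM in GFP dsRNA cells. All porthos libraries lay above all GFP libraries, and the log2 change was 0.53 ± 0.09 (edgeR adjusted p = 0.00035). In input Rpt6 had 145, 162 and 159 CPM in porthos dsRNA cells, against 154, 160.1 and 162 CPM in GFP dsRNA cells, and there the groups overlapped. Its exons share 182 of 1404 bases with CG1801 on the opposite strand, which had 47 counts over all 12 libraries, against 14471 for Rpt6. Rpt6R, the paralog, had a log2 change of 0.10 ± 0.09 on polysomes, which did not pass the test (edgeR adjusted p = 0.46).

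Among the other ATPase genes, Rpt1 had 286, 211 and 272 CPM on polysomes of porthos dsRNA cells, against 176, 196 and 214 CPM in GFP dsRNA cells. Library 2 of the porthos group fell below the highest GFP library, so the groups overlapped, and the log2 change was 0.40 ± 0.09 (edgeR adjusted p = 0.0045). In input Rpt1 had 320.0, 314 and 305 CPM in porthos dsRNA cells, against 309, 318 and 324 CPM in GFP dsRNA cells. Rpt5 (FBgn0028684, chromosome 3R, 23752876 to 23754623, plus strand) had 113, 96.8 and 102 CPM on polysomes of porthos dsRNA cells, against 79.1, 85.9 and 90.8 CPM in GFP dsRNA cells. The polysome groups of Rpt5 did not overlap, and the log2 change was 0.29 ± 0.07 (edgeR adjusted p = 0.0081). Its input libraries had 146, 148 and 144 CPM in porthos dsRNA cells, against 158, 160.3 and 152 CPM in GFP dsRNA cells, which is the opposite order and did not pass the test. Rpt2, Rpt3 and Rpt4 had log2 changes of 0.16, 0.10 and 0.16 on polysomes, and none passed.

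Rpn10 (FBgn0015283, chromosome 3L, 21537000 to 21538582, plus strand) had 258, 232 and 236 CPM on polysomes of porthos dsRNA cells, against 167, 193 and 186 CPM in GFP dsRNA cells. The groups did not overlap, and the log2 change was 0.41 ± 0.08 (edgeR adjusted p = 0.0007). In input Rpn10 had 183, 196 and 190.2 CPM in porthos dsRNA cells, against 193, 191 and 169.5 CPM in GFP dsRNA cells. Rpn10 and Rpn13 are both ubiquitin receptors, and Rpn13 had a log2 change of -0.01 ± 0.10 on polysomes. The scaffold genes Rpn1 and Rpn2 had log2 changes of 0.20 ± 0.09 and 0.09 ± 0.08, and neither passed.

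In the lid, Rpn5 (FBgn0028690, chromosome 3R, 5789493 to 5791569, plus strand) had 165, 138 and 190.4 CPM on polysomes of porthos dsRNA cells, against 119, 135 and 129 CPM in GFP dsRNA cells. The groups lay apart, with porthos library 2 close to the highest GFP library, and the log2 change was 0.36 ± 0.09 (edgeR adjusted p = 0.0068). In input this gene had 196, 194 and 185 CPM in porthos dsRNA cells, against 212, 197 and 211 CPM in GFP dsRNA cells. Rpn6 (FBgn0028689, chromosome 2R, 14750166 to 14752910, minus strand) had 208, 169 and 195 CPM on polysomes of porthos dsRNA cells, against 153, 165 and 157 CPM in GFP dsRNA cells. Its groups did not overlap either, and the log2 change was 0.27 ± 0.08 (edgeR adjusted p = 0.02). In input Rpn6 had 187, 200.2 and 190.5 CPM in porthos dsRNA cells, against 195, 219 and 198 CPM in GFP dsRNA cells. Both genes encode scaffold subunits of the lid.

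Rpn9 (FBgn0028691, chromosome 3R, 23731375 to 23733462, minus strand), a further lid scaffold gene, had 190.2, 152 and 206 CPM on polysomes of porthos dsRNA cells, against 138, 165 and 156 CPM in GFP dsRNA cells. Porthos library 2 lay inside the GFP range, and the log2 change was 0.26 ± 0.09 (edgeR adjusted p = 0.048). The input libraries held 171, 163 and 159 CPM in porthos dsRNA cells, against 167, 176 and 175 CPM in GFP dsRNA cells. Its exons share 125 of 1679 bases with CG10365 on the opposite strand, and the strand setting of the counting is not given in the sources used here. The deubiquitinase gene Rpn11 and its partner Rpn8 had log2 changes of -0.02 and 0.09 on polysomes, and Rpn3, Rpn7 and Rpn12 of 0.19, 0.17 and 0.06, and none of these passed.

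**Figure D4:**
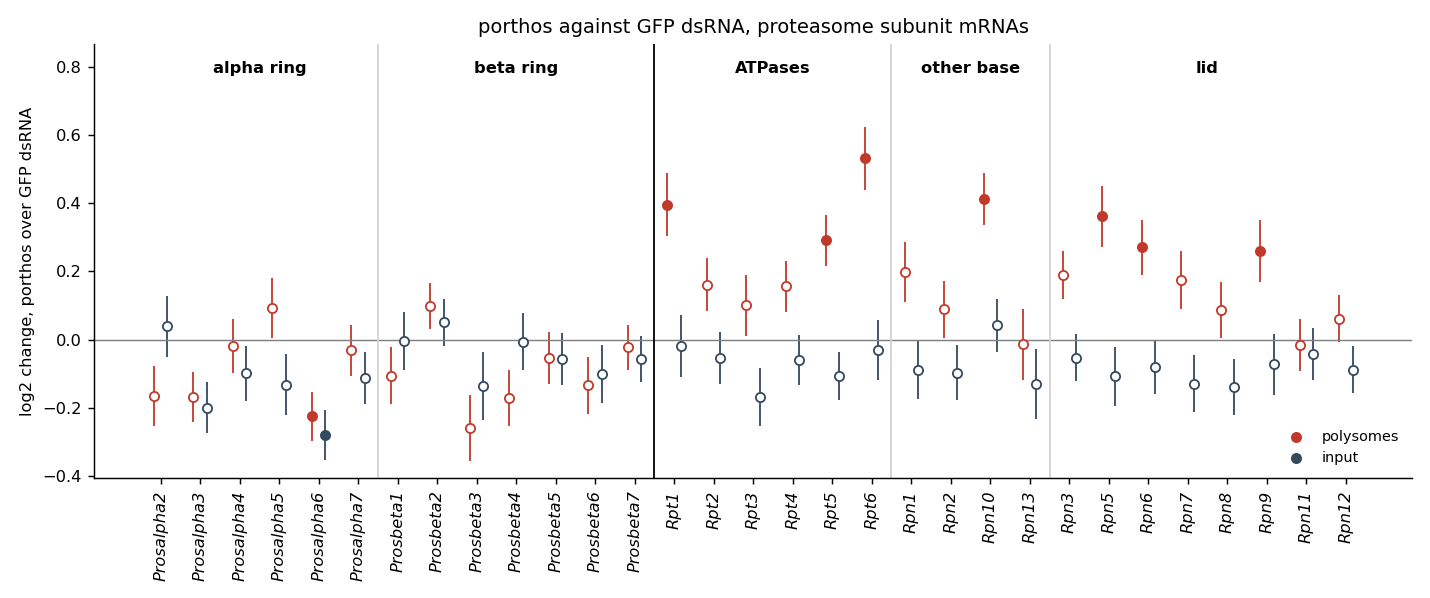
log2 change of porthos over GFP dsRNA (vertical axis) for each tested proteasome subunit mRNA on polysomes (red) and in input (dark blue), grouped by its place in the complex. Points are fitted values from 3 libraries a group, bars are 1 SE, and filled points passed an edgeR adjusted p of 0.05; the filled points above 0 are the 7 polysome values of 19S genes, and Prosalpha6 is below 0 in both fractions.

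In the core, Prosalpha6 had 240.4, 264 and 229 CPM on polysomes of porthos dsRNA cells, against 296, 286 and 275 CPM in GFP dsRNA cells. Input libraries gave 162, 169.8 and 158 CPM in porthos dsRNA cells, against 201, 204 and 189 CPM in GFP dsRNA cells. The porthos libraries lay below the GFP libraries in both fractions, with log2 changes of -0.23 ± 0.07 on polysomes and -0.28 ± 0.07 in input (edgeR adjusted p = 0.032 and 0.048). The other core genes had log2 changes on polysomes from -0.26 (Prosbeta3) to 0.10 (Prosbeta2), and none passed.

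The calls on polysomes depended on single libraries. The number of higher genes was 3 without polysome library 1 of porthos dsRNA cells, 4 without library 3, which stood apart (Rpt1, Rpt5, Rpt6 and Rpn10), and 9 without library 2, and it was 3 without polysome library 1 of GFP dsRNA cells and 5 without library 3, all against 7. Rpt6 and Rpn10 were called under all 21 alternatives, Rpt1 under 20, Rpn5 under 19, Rpt5 under 18, Rpn6 under 16, and Rpn9 under 5. The lower call of Prosalpha6 held under 15 of 21. It was lost, with 0 members lower, without polysome library 1 or 3 of porthos dsRNA cells. The same held without polysome library 1 or 2 of GFP dsRNA cells. There were 4 members lower without polysome library 2 of porthos dsRNA cells and 5 without polysome library 3 of GFP dsRNA cells. Of all genes, 13.6% were higher and 12.2% lower without polysome library 2 of porthos dsRNA cells, and 6.52% and 4.53% without library 3. Over all left-out libraries, 547 to 1252 genes were called higher on polysomes and 308 to 1131 lower.

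**Figure D5:**
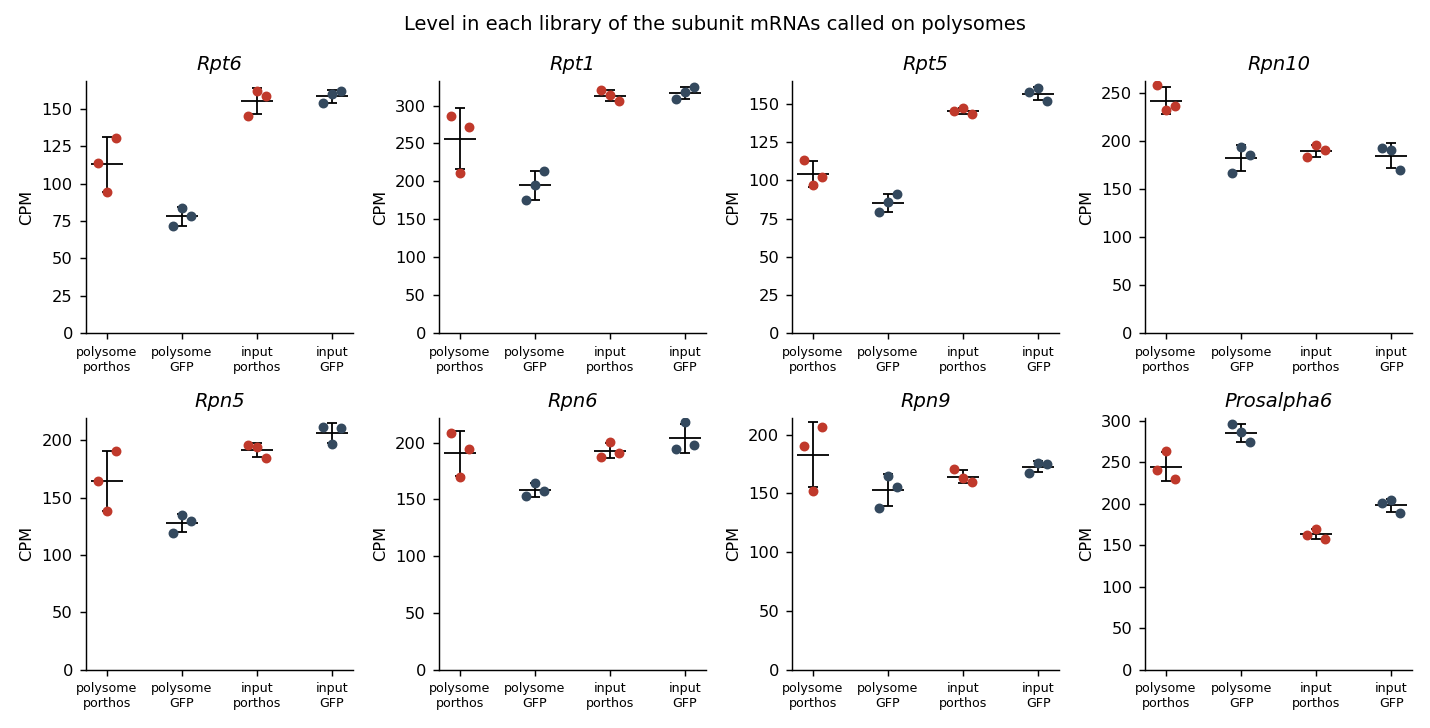
CPM (vertical axes, starting at 0) in each of the 12 libraries for the 8 subunit mRNAs called between porthos and GFP dsRNA on polysomes, by group. Points are libraries, the horizontal line is the mean and bars are SD over 3 libraries; for Rpt6 the porthos polysome libraries have 94.3 to 131 CPM and the GFP polysome libraries 71.7 to 83.8 CPM, while its input groups overlap.

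Marker lists were read beside this result. On polysomes the summed level of the plasmatocyte list, 9 of whose 10 genes were tested, was 1130 to 1300 CPM in porthos dsRNA cells and 969 to 1120 CPM in GFP dsRNA cells. Of the 9, 5 were higher, where 11.2% of all genes tested were higher and 7.14% lower. In input the summed level was 1560 to 1840 CPM in porthos dsRNA cells and 1480 to 1710 CPM in GFP dsRNA cells. There 3 were higher with porthos dsRNA, Hml, Pxn and eater (log2 change 1.00, 1.18 and 0.94; edgeR adjusted p = 1.3e-05, 6e-06 and 0.00017). Of all genes tested, 0.997% were higher and 0.72% lower in input. Of the same list NimC1 had 2 to 13 counts in a library, Sr-CI 2 to 18 and He 12 to 25. The sum of 7 matched germline and testis genes, of which 5 were tested and 2 higher (aub and bam), was 191 to 250 CPM in porthos dsRNA cells and 160 to 167 CPM in GFP dsRNA cells, with can at 0 in every polysome library. In input these summed to 327 to 336 CPM in porthos dsRNA cells and 293 to 301 CPM in GFP dsRNA cells, and 1 was higher, bam (log2 change 0.73; edgeR adjusted p = 0.015). Without library 3 of the porthos polysome group, 4 plasmatocyte and 2 germline genes were higher on polysomes, where 6.52% of all genes were higher. Lamellocyte markers summed to 713 to 912 CPM in porthos dsRNA cells and 678 to 738 CPM in GFP dsRNA cells on polysomes. Of 3 tested, mys was higher and ItgaPS4 lower (edgeR adjusted p = 0.033 and 0.013). Without library 3 of the porthos polysome group mys did not pass and ItgaPS4 was still lower (edgeR adjusted p = 0.28 and 0.0076). In input ItgaPS4 was lower (log2 change -0.30; edgeR adjusted p = 0.047). Neuron markers summed to 90.0 to 116 CPM in porthos dsRNA cells and 79.7 to 96.4 CPM in GFP dsRNA cells on polysomes. The lists of muscle, fat body and crystal cell markers summed to at most 15.8 CPM in any library. The part of any of these genes in the result was not tested, and fewer cells of a type and less RNA per cell cannot be told apart in bulk RNA.

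In input the subunit mRNAs differed little between treatments. The test called 0 proteasome subunit genes higher and 1 lower, Prosalpha6, where 0.997% of all genes tested were higher and 0.72% lower. DESeq2 and limma voom also called 0 higher and 1 lower, and 2 members had an unadjusted p under 0.05 in edgeR, where 13.9% of all genes did. The median log2 change was -0.10 over the core and -0.08 over the 19S particle, and 28 of 31 members lay below 0. Over all genes the median in input was 0.0035, and 4425 of 9024 lay below 0. The call of Prosalpha6 was lost when any 1 of the 6 input libraries was left out, and also without polysome library 2 of GFP dsRNA cells or polysome library 1 of porthos dsRNA cells, with an edgeR adjusted p of up to 0.25.

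The difference between the porthos change on polysomes and that in input was tested for each gene as an interaction. edgeR called 0 proteasome subunit genes in either direction, where 0.0776% of all genes were called higher and 0.0222% lower. Of the 31 members 11 had an unadjusted p under 0.05, and all 11 belong to the 19S particle, where 15.0% of all genes had one. DESeq2 called 4 members higher, Rpt5, Rpt6, Rpn10 and Rpn5, where it called 197 of 9024 genes higher and 30 lower. From limma voom there were 0 members called, where 3 of all genes were called higher and 0 lower. The smallest p belonged to Rpt6, with a difference of 0.56 ± 0.13 on the log2 scale, then to Rpt5 at 0.40 ± 0.10 and Rpn5 at 0.47 ± 0.13 (edgeR adjusted p = 0.052, 0.082 and 0.09). The median difference was 0.03 over the core and 0.28 over the 19S particle, where 18 of 18 genes lay above 0. Over all genes the median was -0.0033, and 4468 of 9024 lay above 0. Across the 31 tested members, the difference and log coding length had a Pearson correlation of 0.65 and a Spearman's rho of 0.755. Across all 8419 genes these were 0.18 and 0.25. Within the 19S particle they were 0.11 and 0.23 over 18 genes, and within the core 0.615 and 0.57 over 13 genes. With the length trend removed 0 members were called, with medians of 0.07 over the core and 0.24 over the 19S particle. Without polysome library 2 of porthos dsRNA cells, 8 members were called higher, all of the 19S particle, where 5.54% of all genes were called higher and 1.97% lower. Without library 3 of that group 0 members were called, and the median difference was 0.02 over the core and 0.22 over the 19S particle. Without a filter on low counts edgeR called Rpt1, Rpt6 and Rpn5 higher, where 1.05% of the 14145 genes then tested were higher. With library size alone the share of higher genes among all calls of this difference was 37.5%, against 77.8% with TMM.

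Genes that work with the proteasome were taken from lists of assembly factors, associated subunits, ubiquitin shuttles, ubiquitin genes and the transcription factors of the proteasome response. On polysomes, where 11.2% of all genes tested were higher and 7.14% lower, 1 of 2 assembly factor genes was lower with porthos dsRNA. It was Pomp, a chaperone of core assembly, with 119, 124 and 121 CPM in porthos dsRNA cells, against 173, 146 and 141 CPM in GFP dsRNA cells (log2 change -0.34 ± 0.08; edgeR adjusted p = 0.0051). Of the 5 associated subunit genes, Sem1, a small lid component outside the naming rule, was lower, with 103.5, 105 and 107 CPM in porthos dsRNA cells, against 159, 126 and 127 CPM in GFP dsRNA cells (log2 change -0.39 ± 0.09; edgeR adjusted p = 0.0035). For both genes all porthos libraries lay below all GFP libraries. In the same list Usp14, a proteasome-bound deubiquitinase, was higher (log2 change 0.26 ± 0.08; edgeR adjusted p = 0.032). Pomp, Sem1 and Usp14 were called in the same directions without polysome library 3 of porthos dsRNA cells (log2 change -0.36, -0.42 and 0.28; edgeR adjusted p = 0.01, 0.0058 and 0.033).

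Against the same shares of 11.2% higher and 7.14% lower over all genes tested, 1 of 6 tested shuttle genes was higher on polysomes with porthos dsRNA. It was Ubqn, which encodes ubiquilin (log2 change 0.30 ± 0.09; edgeR adjusted p = 0.016). Among 5 ubiquitin genes, the polyubiquitin gene Ubi-p5E was higher (0.39 ± 0.08; edgeR adjusted p = 0.0022) and RpS27A, a fusion of ubiquitin with a ribosomal protein, was lower (-0.25 ± 0.08; edgeR adjusted p = 0.044). Without polysome library 3 of porthos dsRNA cells Ubi-p5E was still called (0.29; edgeR adjusted p = 0.027), and Ubqn at 0.18 and RpS27A at -0.20 were not (edgeR adjusted p = 0.16 and 0.15). The transcription factor genes cnc, the fly Nrf homolog, and maf-S, its partner, and Keap1, the inhibitor of cnc, had log2 changes of -0.15, -0.27 and -0.22 on polysomes, and none passed. With all 12 libraries edgeR called none of the genes in these 5 lists in input. There 1 gene in each of 4 lists, and 0 assembly factor genes, had an unadjusted p under 0.05. In input cnc had a log2 change of -0.25 ± 0.07 (edgeR adjusted p = 0.067). Without polysome library 3 of porthos dsRNA cells edgeR called cnc lower in input (log2 change -0.25; edgeR adjusted p = 0.034), where 1.32% of all genes were lower. DESeq2 called 1 gene of these lists in input, cnc, as lower, and limma voom called 0.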

How the data were processed

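RNA was poly(A)-selected and sequenced with a directional kit, per the labels' protocols. The authors deposited whole-number read counts per FlyBase gene, made with HISAT2 2.1.0 and featureCounts 1.4.6 on dm6, per the submitters' processing notes. The annotation release is not given in the sources used here, nor are strand setting and treatment of multiply mapped reads. Symbols, coordinates (dm6, counted from 1) and lengths came from an Ensembl annotation of that assembly. Of 17023 identifiers, 376 matched no symbol and held 5.29% of counts.

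All 12 libraries entered 1 edgeR 4.0.16 quasi-likelihood fit (R 4.3.3; filterByExpr, TMM, a term per group) with 5 contrasts, and p-values were adjusted by Benjamini-Hochberg over all 9024 genes tested. SE was obtained as log2 change over the root of the F statistic. TPM used summed exon length. Alternatives used DESeq2 1.42.0, limma 3.58.1 voom, other scalings and filters, blocks and left-out libraries. The fit was tested on simulated data. Replicates differed by more than counting noise (lowest chi-square per degree of freedom 2.33).

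Members and lists were chosen with earlier results of these data known. Values in every library are given for members called in a porthos contrast, the 3 with the smallest p in the interaction, and the extremes of the GFP polysome to input change and of TPM in each part of the complex. Associated genes are named where called, together with the transcription factor genes. The planned search of promoters and proteins was not run, since no sequence was used here.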

Additional observations from a re-analysis of the deposited data

How the results depend on the processing

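Left-out libraries gave ranges as follows. Over all genes, 547 to 1252 were called higher and 308 to 1131 lower on polysomes. In the difference of changes these ranges were 0 to 512 and 0 to 182, and in input 18 to 138 and 10 to 121. For polysome against input they were 1972 to 2184 and 1782 to 2248 in porthos dsRNA cells. In GFP dsRNA cells they were 2141 to 2597 and 2230 to 2639. Higher members numbered 0 to 0 in input, 3 to 9 on polysomes, 0 to 8 in the difference of changes, 16 to 18 for polysome against input in porthos dsRNA cells and 13 to 15 in GFP dsRNA cells. Lower members numbered 0 to 1 in input, 0 to 5 on polysomes, 0 to 0 in the difference, 5 to 9 in porthos dsRNA cells and 10 to 12 in GFP dsRNA cells. Median log2 changes of the core ran from -0.12 to -0.042 in input, -0.20 to -0.06 on polysomes, -0.04 to 0.04 in the difference, 0.45 to 0.60 in porthos dsRNA cells and 0.48 to 0.60 in GFP dsRNA cells. Those of the 19S particle ran from -0.12 to -0.05, 0.13 to 0.22, 0.21 to 0.33, -0.14 to -0.02 and -0.39 to -0.31 in the same order. The log2 core to 19S ratio ran from 0.77 to 0.96 (polysome porthos), 1.09 to 1.22 (polysome GFP), 0.21 to 0.22 (input porthos) and 0.21 to 0.23 (input GFP).

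Of the porthos counts, input alone gave 2 lower, and polysomes alone gave 4 higher and 0 lower. Lower members on polysomes numbered 3 with library size alone, 2 without a filter, 2 at a filter of 10 CPM and 0 with the length trend removed. Members higher in the difference numbered 3 without a filter and 4 with DESeq2. The cause was not tested. Between fractions of a treatment, same-numbered libraries correlated at 0.0343 to 0.136 and differently numbered ones at -0.0853 to 0.0182. Between treatments same-numbered libraries correlated at -0.0225 to 0.0871. Of 6 same-numbered pairs between fractions 1 passed the set minimum of 0.1, so the main fit did not pair the samples. Whether same-numbered input and polysome libraries share a lysate was not settled by these values. With a replicate block 2 members were lower on polysomes and 1 higher in the difference (Rpt6), and with a block per lysate 4 were (Rpt1, Rpt5, Rpt6 and Rpn5). With library size alone 5 members were lower on polysomes than in input in porthos dsRNA cells, and the median of the core was 0.61 in porthos and 0.66 in GFP dsRNA cells and that of the 19S particle -0.26 in GFP dsRNA cells. With the length trend removed 6 members were higher in porthos and 3 in GFP dsRNA cells, the core medians were 0.15 and 0.091 and the 19S medians -0.23 and -0.51. That fit reversed Prosbeta4 (-0.072), Rpn11 (-0.034) and Rpn12 (-0.043) in porthos dsRNA cells, and Prosalpha5 (-0.11), Prosalpha7 (-0.094), Prosbeta2 (-0.081), Prosbeta4 (-0.039), Rpn11 (-0.10) and Rpn12 (-0.28) in GFP dsRNA cells. From sums of TPM the ratio was 0.38 (polysome porthos), 0.70 (polysome GFP), -0.26 (input porthos) and -0.25 (input GFP), and from coding length 0.31 (input porthos) and 0.32 (input GFP). Over all genes, calls higher and lower were 90 and 65 in input, against 360 and 331 with input libraries alone, 122 and 127 with DESeq2 and 120 and 102 with the length trend removed. On polysomes they were 1014 and 644, against 559 and 294 with polysome libraries alone. In the difference they were 7 and 2, against 149 and 94 without a filter, 197 and 30 with DESeq2, 28 and 11 with the replicate block, 175 and 52 with the block per lysate, 6 and 10 with library size alone, 3 and 0 at 10 CPM, 3 and 0 with voom and 2 and 0 with the length trend removed. For polysome against input with the length trend removed they were 1499 and 1121 in porthos dsRNA cells, against 2136 and 2175, and 2066 and 1564 in GFP dsRNA cells, against 2395 and 2605.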

Other observations

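The mRNAs of another ring-shaped cytosolic complex, the CCT chaperonin, which folds actin and tubulin among other proteins, were set beside the proteasome as a list chosen with earlier results of these data known. Of its 8 subunit genes 7 were matched and tested. On polysomes all 7 were higher in porthos dsRNA cells than in GFP dsRNA cells, with log2 changes from 0.25 (CCT1) to 0.39 (CCT6) and a median of 0.30 (edgeR adjusted p from 0.00097 to 0.028), where 11.2% of all genes were called higher. Without polysome library 3 of porthos dsRNA cells, which stood apart, 3 of 7 were called higher, with a median of 0.24. In input 0 of 7 were called by edgeR and 0 had an unadjusted p under 0.05, with a median log2 change of -0.04, and DESeq2 and limma voom called 0 of 7. Relative to input, polysome RNA held less of these mRNAs in both treatments. In porthos dsRNA cells 6 of 7 were lower (median log2 change -0.25), where 24.1% of all genes were. In GFP dsRNA cells 7 of 7 were lower (median -0.61), where 28.9% of all genes were. The part of mRNA length in these changes was not tested. The difference between the porthos changes on polysomes and in input was called for 0 of 7 by edgeR and for 0 by limma voom. DESeq2 called it for 4, where it called 197 of 9024 genes higher and 30 lower. The difference had an unadjusted p under 0.05 in edgeR for 6 of 7, where 15.0% of all genes did. Its median was 0.36, against 0.28 over the 19S particle and 0.03 over the 20S core. These comparisons share the same libraries as those of the proteasome subunit genes.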
